A study of Homo with 4 samples.

Results

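The signal recognition particle (SRP) and the translocon genes were examined in H1299 cells, a human non-small cell lung cancer line, by RNA sequencing of cells infected with control lentivirus (shCtrl, labelled WT) or with lentivirus that delivered a hairpin targeting IGF2BP3 mRNA (shIGF2BP3, labelled IGF2BP3 knockdown). Each group had 2 libraries. The 10 genes were SRP9, SRP14, SRP19, SRP54, SRP68, SRP72, SRPRA, SRPRB, SEC61A1 and SEC61B, of 20263 genes in the count table, and were found by matching each gene's GRCh38 position to RefSeq. All 10 were among the 13379 genes with enough counts to be tested. SRP9 was chosen because it was lower in shIGF2BP3 in these libraries, so its difference is given as a description without a test, and the other 9 genes were taken as its partners. Which hairpin each shIGF2BP3 library carried is not given in the sources used here, so hairpin and replicate cannot be told apart, nor can loss of IGF2BP3 and other effects of a hairpin.

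The SRP is a ribonucleoprotein that recognises a signal peptide as it leaves the ribosome, slows elongation and brings the ribosome to the endoplasmic reticulum (ER). SRP54 binds the signal peptide, SRP19 helps to load SRP54 onto the SRP RNA, SRP68 and SRP72 form a dimer on the same RNA, and SRP9 with SRP14 form the dimer of the Alu domain, which is needed for the elongation pause. At the ER membrane the receptor, made of SRPRA and SRPRB, takes up the SRP, and the nascent chain passes into the SEC61 channel, whose pore is SEC61A1 and whose small subunits include SEC61B. IGF2BP3 is an RNA-binding protein that is known to stabilise target mRNAs.

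The libraries held 29709686 to 34817513 counts, of which mitochondrially encoded genes took 9.11% to 17.02%, with the highest share in shIGF2BP3 replicate 2. Levels of a gene in different libraries are given as CPM, its counts scaled to library size with TMM factors, and levels of different genes as FPKM, which is also divided by length. IGF2BP3 stood at 41.1 and 32.9 CPM in shCtrl and at 26.4 and 24.8 CPM in shIGF2BP3, a log2 fold change of -0.53 ± 0.17 (SE), or 69.1% of the shCtrl level (edgeR adjusted p = 0.472). The 2 groups did not overlap, but the change did not pass the adjusted test. The keratins KRT8 and KRT18 and the intermediate filament gene VIM were abundant in every library, while the epithelial markers EPCAM, CDH1 and KRT19, the matched markers of lung epithelium, leukocytes and endothelium and the fibroblast genes COL1A1, COL1A2 and DCN stayed at 0.184 FPKM or below. The samples are labelled epithelial cells, and the epithelial adhesion genes EPCAM and CDH1 were thus at or near 0. The summed level of the 4 fibroblast and mesenchymal markers, nearly all of it VIM, was 1828 to 1921 FPKM in shCtrl and 2081 to 2612 FPKM in shIGF2BP3. The summed level of the 6 epithelial markers was 1017 to 1121 FPKM in shCtrl and 1019 to 1045 FPKM in shIGF2BP3. KRT8 was at 401 and 447 FPKM in shCtrl and 357 and 330 FPKM in shIGF2BP3. KRT7 was at 3.52 and 3.71 against 2.61 and 2.44 FPKM. Both were lower without overlap, as were 28.0% of all genes tested in FPKM. KRT18, at 612.5 and 670.8 against 659.6 and 712.5 FPKM, overlapped, with its lowest value in shCtrl and its highest in shIGF2BP3. The part of these marker differences in the results on the SRP genes was not tested.

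SRP9 (ENSG00000143742, GRCh38 chr1:225777813-225790466, plus strand) had 179 and 151 CPM in shCtrl and 60.3 and 53.3 CPM in shIGF2BP3. Both shIGF2BP3 libraries lay far below both shCtrl libraries, and the libraries of each group lay close together. The mean was 165 ± 19.9 CPM (SD, n = 2) in shCtrl and 56.8 ± 4.94 CPM (SD, n = 2) in shIGF2BP3, a log2 fold change of -1.54, or 34.5% of the shCtrl level. The raw counts behind these levels were 6722, 5103, 2081 and 1468, so counting error was small beside the spread between libraries. SRP9 held rank 92 from the lowest log2 fold change among the 13379 genes tested. In bulk RNA, fewer cells that express a gene and less RNA per cell cannot be told apart. RefSeq lists pseudogene copies of SRP9, SRP14 and SRP72, and how reads shared with such copies were counted is not given in the sources used here.

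**Figure D1:**
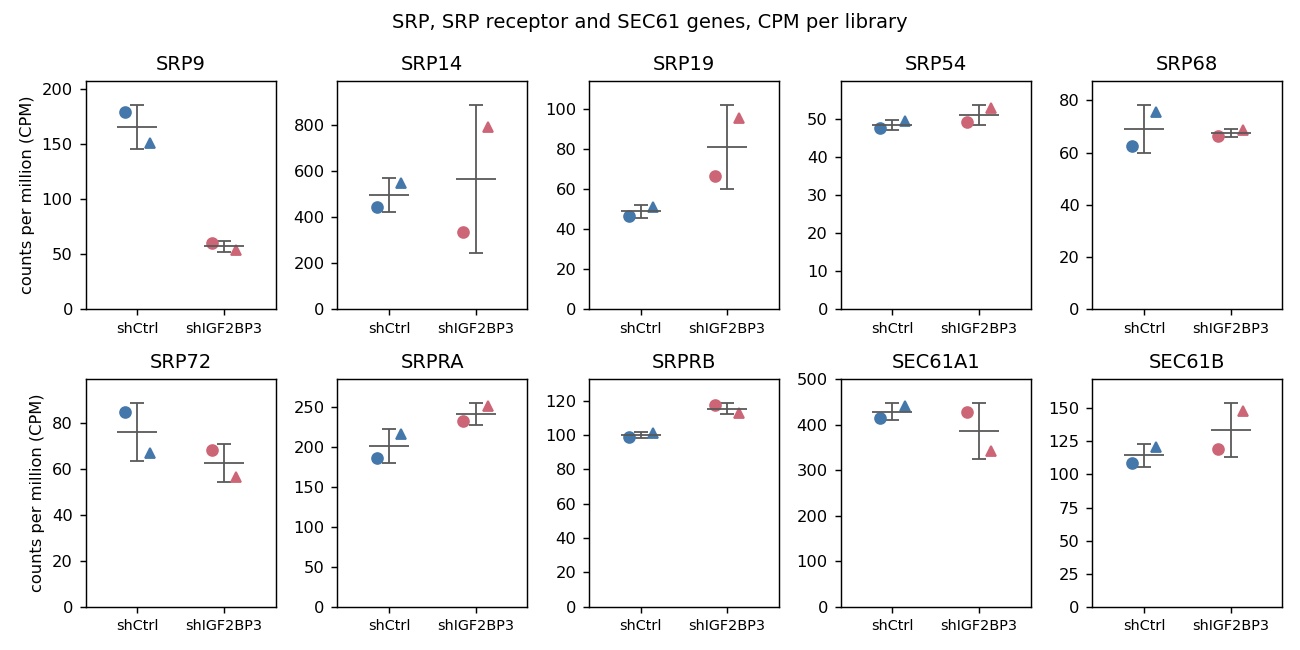
CPM (linear axis from 0) of the 10 genes in each library, with circles for replicate 1, triangles for replicate 2, and a grey bar for the mean ± SD of the 2 libraries of each group. SRP9 is at 179 and 151 CPM in shCtrl and at 60.3 and 53.3 CPM in shIGF2BP3, SRP19 is higher in both shIGF2BP3 libraries, and the SRP14 values of the shIGF2BP3 libraries lie on either side of both shCtrl libraries.

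The difference in SRP9 lay almost wholly in 1 of its 5 transcripts. ENST00000304786 (chr1:225777829-225790466) had 153 and 128 CPM in shCtrl and 38.2 and 28.9 CPM in shIGF2BP3, a log2 fold change of -2.07, or 23.9% of shCtrl. ENST00000366839 (chr1:225777837-225790466) had 26.9 and 18.8 CPM in shCtrl and 21.6 and 24.3 CPM in shIGF2BP3, a log2 fold change of 0.01, and here the groups overlapped. The first transcript thus took 84.8% and 87.1% of the SRP9 counts in shCtrl but 62.9% and 53.9% in shIGF2BP3, while the second took 14.9% and 12.7% in shCtrl and 35.6% and 45.3% in shIGF2BP3. Without the leading transcript, the rest of SRP9 stood at 27.1 and 19.5 CPM in shCtrl and 22.4 and 24.6 CPM in shIGF2BP3. These values chose SRP9 together with the gene total, so they carry no test.

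Both main SRP9 transcripts end at the same base and start 8 bases apart, so that they differ inside the gene. The lengths implied by their counts and FPKM values were 1742 bases for ENST00000304786 and 1878 bases for ENST00000366839, a difference of 136 bases. These lengths take the summed counts of each library as the total behind FPKM, which was not tested, so they are approximate. The other 3 transcripts held few counts. ENST00000366838 had 6 and 3 counts in shCtrl and 29 and 10 in shIGF2BP3, ENST00000626563 had 10 and 7 against 1 and 1, and ENST00000619790 had 1 count in each library. No other annotated gene in the table overlapped SRP9 on either strand. Its nearest mapped protein-coding neighbours were ENAH, 124670 bases upstream on the minus strand, and EPHX1, 19625 bases downstream on the plus strand. EPHX1, an epoxide hydrolase, had 18.96 and 23.5 CPM in shCtrl and 23.4 and 26.9 CPM in shIGF2BP3 (log2 fold change 0.25 ± 0.19 SE, edgeR adjusted p = 0.621). ENAH, an actin regulator, had 28.0 and 31.6 CPM in shCtrl and 38.1 and 8.10 CPM in shIGF2BP3 (log2 fold change -0.36 ± 0.66 SE, adjusted p = 0.842), so that the shIGF2BP3 libraries lay on either side of shCtrl.

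**Figure D2:**
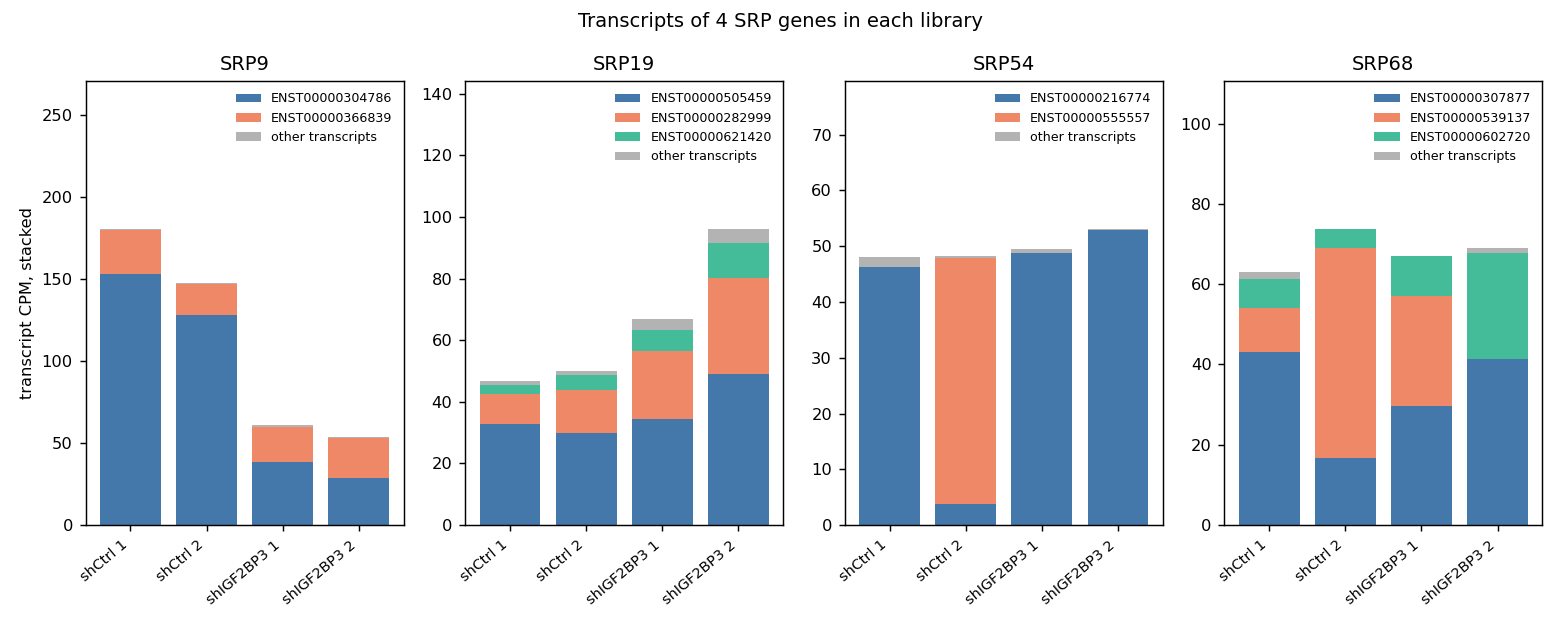
Stacked transcript CPM of SRP9, SRP19, SRP54 and SRP68 in each library, with a colour for each transcript holding at least 5% of its gene's counts over all libraries and grey for the others. In SRP9 the leading transcript is smaller in shIGF2BP3 and the second is not, in SRP19 the 3 transcripts are each higher, and in SRP54 and SRP68 the split between transcripts changes between libraries of 1 group while the total varies little.

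SRP14 (ENSG00000140319, chr15:40035739-40039188), the partner of SRP9 in the Alu domain dimer, overlapped between the groups. It had 445 and 551 CPM in shCtrl and 337 and 792 CPM in shIGF2BP3. The lowest and the highest of the 4 values were both in shIGF2BP3, 2.35-fold apart, against 1.24-fold between the shCtrl libraries. The log2 fold change was 0.18 ± 0.40 (SE, edgeR adjusted p = 0.873), and its direction rested on shIGF2BP3 replicate 2, since it was -0.57 without that library. Replicate 2 was also the library with 17.02% mitochondrial counts, against 11.42% in replicate 1, and the part of this in the SRP14 value was not tested. Both main SRP14 transcripts showed the same split, with 260 and 329 CPM in shCtrl against 203 and 441 CPM in shIGF2BP3 for ENST00000267884, and 188 and 209 against 135 and 354 CPM for ENST00000558720.

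Per length, SRP14 exceeded SRP9 in every library. The ratio of SRP14 to SRP9 FPKM was 4.01 and 5.82 in shCtrl and 8.91 and 24.5 in shIGF2BP3. The ratio was therefore higher in both shIGF2BP3 libraries, but since it holds the SRP9 values that chose the gene it is a description only. The difference between the 2 shIGF2BP3 ratios came mostly from SRP14, at 314 and 687 FPKM, with SRP9 at 35.3 and 28.0 FPKM.

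SRP19 (ENSG00000153037, chr5:112861222-112869788) was the 1 partner of 9 past the thresholds used here. These are a change of 1.5-fold or more in either direction and an edgeR p, not adjusted, no higher than 0.05. The study gives the same fold change and p cutoff but does not name the test for its RNA sequencing. With the edgeR p, these thresholds called 5.32% of all genes tested, and 2.54% as higher in shIGF2BP3. SRP19 had 46.3 and 51.2 CPM in shCtrl and 66.3 and 95.6 CPM in shIGF2BP3. Both shIGF2BP3 libraries were above both shCtrl libraries, and they differed from each other more than the shCtrl libraries did. The log2 fold change was 0.73 ± 0.21 (SE), or 1.66-fold, and the edgeR adjusted p over all genes was 0.472, so the difference did not pass the adjusted test. The call was lost when shIGF2BP3 replicate 2 was left out (log2 fold change 0.44) and when shCtrl replicate 1 was left out (0.67), since the unadjusted p then exceeded 0.05, while the direction held in both.

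The higher SRP19 level was spread over its transcripts. ENST00000505459, the longest, had 32.8 and 29.9 CPM in shCtrl and 34.3 and 49.2 CPM in shIGF2BP3 (log2 fold change 0.41 ± 0.27 SE, edgeR adjusted p = 0.8998). ENST00000282999 had 9.76 and 13.9 CPM in shCtrl and 22.4 and 31.2 CPM in shIGF2BP3, and was the 1 transcript of the partners with at least 5% of its gene's counts that passed the fold change and unadjusted p (log2 fold change 1.18 ± 0.35 SE, edgeR adjusted p = 0.688). ENST00000621420 had 2.87 and 4.85 CPM in shCtrl and 6.51 and 11.3 CPM in shIGF2BP3 (1.20 ± 0.53 SE, adjusted p = 0.846). In each of these 3 transcripts both shIGF2BP3 libraries lay above both shCtrl libraries. The minor ENST00000515463, named after its values were seen, had 20 and 7 counts in shCtrl and 86 and 86 in shIGF2BP3 (log2 fold change 2.92 ± 0.71 SE, adjusted p = 0.542). A single-transcript gene overlaps SRP19 on the same strand (ENSG00000272869) but held 1, 6, 1 and 1 counts, and adding it to SRP19 left the log2 fold change at 0.73.

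SRP54 (ENSG00000100883, chr14:34981957-35029567), the subunit that binds the signal peptide, had 47.6 and 49.3 CPM in shCtrl and 49.1 and 52.8 CPM in shIGF2BP3. The groups overlapped and the 4 values were close together (log2 fold change 0.07 ± 0.13 SE, edgeR adjusted p = 0.843). Its counts were not split alike between transcripts in libraries of 1 group. ENST00000216774 took 96.3% of the SRP54 counts in shCtrl replicate 1, 7.78% in shCtrl replicate 2 and 98.8% and 99.5% in shIGF2BP3, whereas ENST00000555557 had 1531 counts in shCtrl replicate 2 and 0 in the other 3 libraries. The split between transcripts thus shifted between libraries of 1 group. Whether read assignment or the RNA itself differed was not tested, nor was whether such shifts entered the SRP9 shares.

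SRP68 and SRP72, which bind each other on the SRP RNA, did not differ beyond their spread. SRP68 (ENSG00000167881, chr17:76038775-76072653) had 62.5 and 75.4 CPM in shCtrl and 66.4 and 68.6 CPM in shIGF2BP3 (log2 fold change -0.03 ± 0.15 SE, edgeR adjusted p = 0.949). SRP72 (ENSG00000174780, chr4:56466915-56503107) had 85.0 and 67.1 CPM in shCtrl and 68.3 and 56.7 CPM in shIGF2BP3 (-0.28 ± 0.18 SE, adjusted p = 0.569). In both genes the groups overlapped. The SRP68 transcript ENST00000539137 had 402 and 1816 counts in shCtrl and 941 and 0 in shIGF2BP3, so its level also shifted between libraries of 1 group. The main SRP72 transcript ENST00000342756 took 97.9% to 99.9% of the counts of its gene and did not pass (log2 fold change -0.24 ± 0.23 SE, edgeR adjusted p = 0.945). Named after their values were seen, the minor SRP72 transcripts ENST00000504757 and ENST00000505314 had 25 and 31, and 13 and 17, counts in shCtrl and 2 and 1, and 0 and 0, in shIGF2BP3. Of 26 partner transcripts with enough counts, 4 passed the fold change and unadjusted p, 2 higher from SRP19 and 2 lower from SRP72, that is 15.4% against 6.3% of all transcripts tested. Transcripts of 1 gene are not independent, and the 2 shares were not compared by a test. None had an adjusted p under 0.05, and the smallest over all 37927 transcripts tested was 0.306.

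Neither SRP receptor gene passed the test. SRPRA (ENSG00000182934, chr11:126262919-126268982), the subunit that docks with SRP54, had 186 and 217 CPM in shCtrl and 232 and 251 CPM in shIGF2BP3 (log2 fold change 0.26 ± 0.14 SE, edgeR adjusted p = 0.526). SRPRB (ENSG00000144867, chr3:133784033-133825772), the membrane-anchored subunit, had 98.6 and 101 CPM in shCtrl and 118 and 113 CPM in shIGF2BP3 (0.21 ± 0.13 SE, adjusted p = 0.556). In both genes the 2 shIGF2BP3 libraries lay above the 2 shCtrl libraries. With SRP19, 3 of the 9 partners had both shIGF2BP3 libraries above both shCtrl libraries, and 0 had both below, whereas 23.3% of all genes tested were placed above and 23.5% below in this way. In FPKM, the shIGF2BP3 libraries of SRPRB no longer lay above both shCtrl libraries, at 36.7 and 32.3 against 32.8 and 30.3 FPKM, SEC61B lay above, and SRP54 and SRP72 lay below without overlap. In FPKM, 3 partners were thus above and 2 below, beside 15.6% of all genes tested above and 28.0% below.

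The SEC61 channel genes did not differ beyond their spread. SEC61A1 (ENSG00000058262, chr3:128051641-128071682) had 416 and 442 CPM in shCtrl and 429 and 343 CPM in shIGF2BP3 (log2 fold change -0.15 ± 0.16 SE, edgeR adjusted p = 0.717), with the lowest value in shIGF2BP3 replicate 2. SEC61B (ENSG00000106803, chr9:99222064-99230615) had 109 and 121 CPM in shCtrl and 119 and 148 CPM in shIGF2BP3 (0.22 ± 0.16 SE, adjusted p = 0.614). SRPRA, SRPRB and SEC61A1 each overlap a gene on the opposite strand, FAM118B by 68 bases, RAB6B by 1534 bases and RUVBL1 by 6905 bases. The strand setting of the counting is not given in the sources used here, so reads from these overlaps may not have been told apart.

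**Figure D3:**
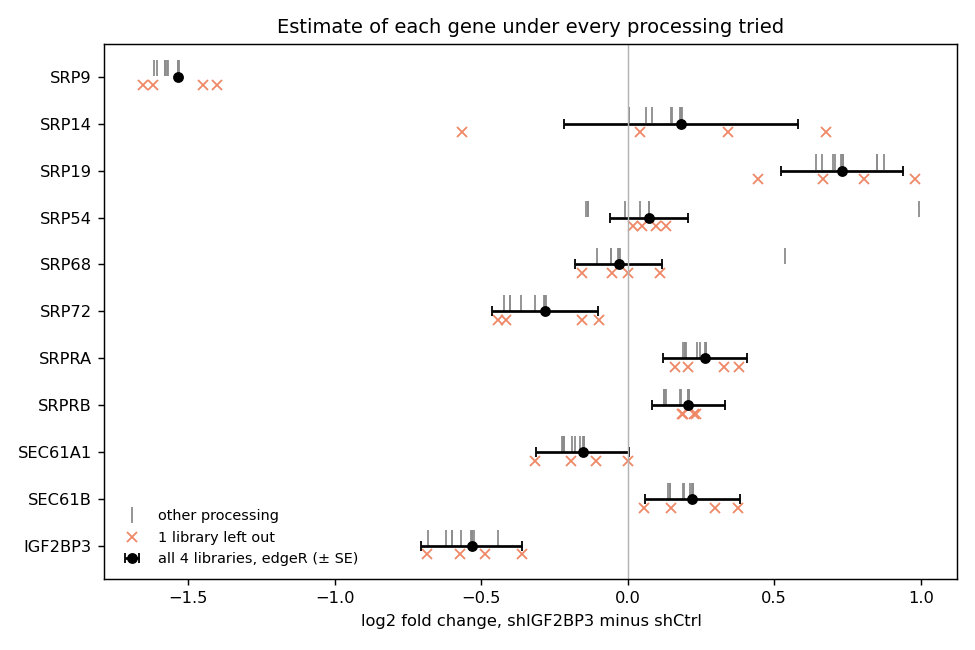
Log2 fold change of shIGF2BP3 minus shCtrl for the 10 genes and IGF2BP3, as black points with the SE of the edgeR fit (none for SRP9, which was chosen on this difference), grey ticks for other ways of processing and orange crosses for fits with 1 library left out. SRP9 stays between -1.65 and -1.40 and SRP19 between 0.44 and 0.98, whereas SRP14 runs from -0.57 to 0.68.

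Across the 9 partners, 6 estimates were above 0 and 3 below, with a median log2 fold change of 0.18 against 0.00 for all genes tested. The 8 partners other than SRP19 differed by at most 1.22-fold (log2 fold change -0.28 to 0.26, unadjusted p 0.120 to 0.842). With SEs of 0.13 to 0.40 and 2 libraries a group, differences of this size were not detectable, which does not show that the levels were equal. The adjusted p of the partners ran from 0.472 to 0.949, and 0 of all 13379 genes had an adjusted p under 0.05 by edgeR, against 1411 at an unadjusted p of at most 0.05 and 157 with an adjusted p under 0.05 by DESeq2, none of them a partner.

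By FPKM, the level per length, the order of the 10 genes in shCtrl began with SRP14 at 464 ± 32.4 FPKM (SD, n = 2), followed by SEC61B at 183 ± 0.472, SEC61A1 at 103 ± 3.11 and SRP9 at 97.0 ± 18.6 FPKM. SRPRA stood at 57.1 ± 1.98, SRPRB at 31.6 ± 1.83, SRP19 at 24.8 ± 1.83, SRP68 at 24.5 ± 1.98, SRP54 at 21.1 ± 0.221 and SRP72 at 17.7 ± 3.82 FPKM. The ranges of SEC61A1 and SRP9, and of SRP19 and SRP68, overlapped in shCtrl, while the other neighbours in the order did not. In shIGF2BP3, SRP9 held rank 7 in place of 4, at 31.7 ± 5.10 FPKM, and its range overlapped that of SRPRB at 34.5 ± 3.09 FPKM. SRP19 held rank 5 in place of 7, at 46.0 ± 8.71 FPKM. The other 8 genes kept their order among themselves. The SRP19 to SRP9 ratio in FPKM was 0.214 and 0.312 in shCtrl and 1.13 and 1.86 in shIGF2BP3. SRP9 was thus the more abundant of the pair per length in both shCtrl libraries and the less abundant in both shIGF2BP3 libraries. This ratio and the rank of SRP9 hold the SRP9 values that chose the gene, so both are a description only.

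**Figure D4:**
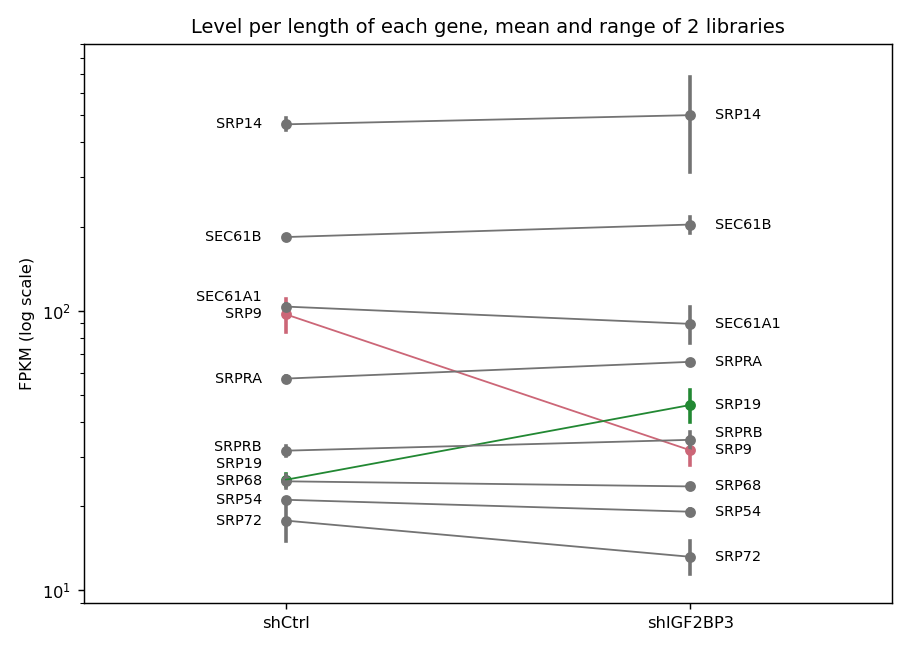
FPKM (log scale) of the 10 genes in shCtrl and shIGF2BP3, with points for the mean and vertical bars for the range of the 2 libraries of each group, SRP9 in red and SRP19 in green. SRP9 goes from rank 4 to rank 7 and SRP19 from rank 7 to rank 5, while the lines of the other 8 genes do not cross each other.

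Genes that work with the SRP and SEC61 at the ER were looked at in lists of subunits. Of 54 such genes tested, 2 passed the fold change and unadjusted p, OSTC higher and GET1 lower, that is 3.70% against the 5.32% of all genes, and 0 had an adjusted p under 0.05. GET1, part of the membrane insertase for tail-anchored proteins, a route that does not use the SRP, had 41.0 and 24.8 CPM in shCtrl and 17.4 and 14.7 CPM in shIGF2BP3 (log2 fold change -1.03 ± 0.28 SE, edgeR adjusted p = 0.472). OSTC, a subunit of the oligosaccharyltransferase that glycosylates chains as they enter the ER, had 61.1 and 45.3 CPM in shCtrl and 97.9 and 68.8 CPM in shIGF2BP3 (0.65 ± 0.24 SE, adjusted p = 0.472). In both the groups did not overlap. Of the 54 genes, 29.6% had both shIGF2BP3 libraries above both shCtrl libraries in CPM and 18.5% had both below. Among all genes tested these shares were 23.3% and 23.5%. Of the 54 genes, 29 estimates were above 0 and 25 below, with a median log2 fold change of 0.03.

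In the translocon partners (0 of 6 past the thresholds), estimates ran from -0.11 for SEC61G, the other small subunit of the channel, to 0.29 for SEC62, which serves post-translational import. In the TRAP complex, which sits beside the channel (0 of 4), they ran from -0.46 for SSR2 to 0.29 for SSR1. The signal peptidase list, whose products process signal peptides (0 of 6), also held HM13, the signal peptide peptidase, which is not a signal peptidase subunit. All 6 estimates of this list were above 0, from 0.05 for SPCS3 to 0.32 for SPCS1, with a median of 0.15 and HM13 at 0.19. The ER membrane complex, an insertase (0 of 10), ran from -0.36 for MMGT1 to 0.38 for EMC1, and the multipass translocon (0 of 7) from -0.68 for NCLN to 0.43 for TMCO1. The nascent polypeptide-associated complex, which competes with the SRP for ribosomes (0 of 2), had 0.04 for BTF3 and 0.53 for NACA. The oligosaccharyltransferase list had 1 of 12 past the thresholds, with 7 estimates above 0 and 5 below. Estimates above and below 0 numbered 4 and 2 in the translocon partners and 2 and 2 in the TRAP complex. They numbered 5 and 5 in the ER membrane complex and 2 and 5 in the multipass translocon. No list was tested as a set. The tail-anchor list had 1 of 7, with 6 estimates below 0 and 1 above, from -1.03 for GET1 to 0.37 for CAMLG, and a median of -0.09. The SRP RNA genes were not analysed here.

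**Figure D5:**
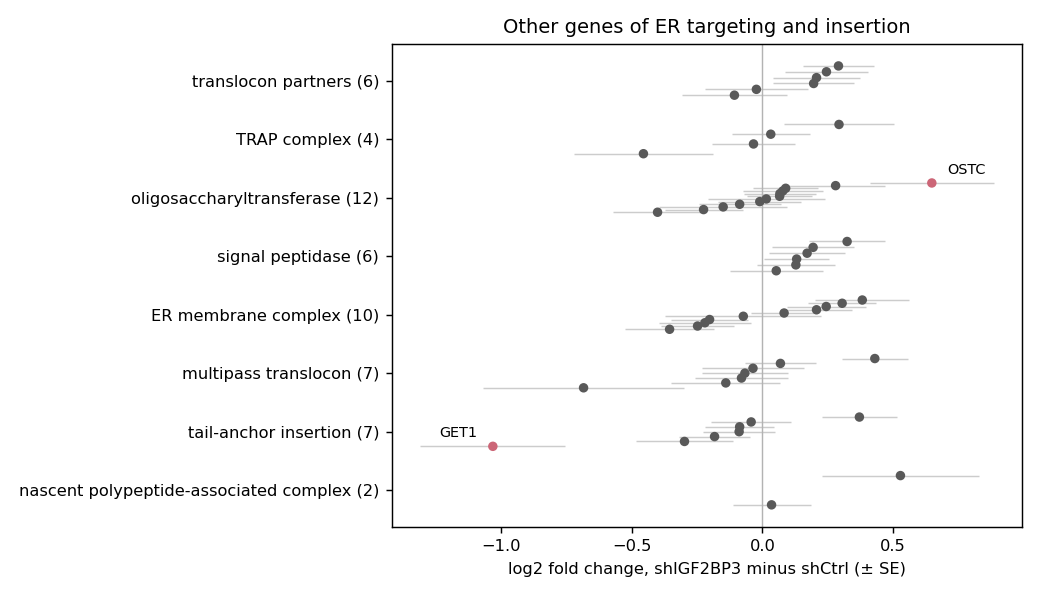
Log2 fold change of shIGF2BP3 minus shCtrl (± SE, edgeR) for the 54 genes of 8 lists, 1 point a gene and the number of genes in parentheses, with genes past a fold change of 1.5 and an unadjusted p of 0.05 in red. OSTC at 0.65 and GET1 at -1.03 are the 2 genes past the thresholds. All 6 points of the signal peptidase list, which includes HM13, lie above 0, and 6 of the 7 tail-anchor points lie below 0. Over all 54 points, 29 lie above 0 and 25 below.

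Among 8676 genes with a symbol and a mean of at least 10 CPM, those with the profile nearest to SRP9 over the 4 libraries, by the Euclidean distance of centred log2 CPM, were POLR3G (distance 0.11), DAZAP2 (0.14), ASB1 (0.19), SORBS3 (0.29) and PPP2R2A (0.32). POLR3G had 27.7 and 23.6 CPM in shCtrl and 9.13 and 8.79 CPM in shIGF2BP3, and DAZAP2 had 217 and 198 against 73.6 and 72.2 CPM. Their levels in shIGF2BP3 were 35.0% and 35.1% of shCtrl, beside 34.5% for SRP9. With 4 libraries in 2 groups, any gene with a like fold change and close replicates comes near by this measure. No partner was among the nearest genes, with SRP72 the closest at a distance of 1.25 (rank 1053) and SRP19 the farthest at 2.30 (rank 8431), and SRP14 at 1.91 (rank 7488). The distances are measured from the SRP9 values that chose the gene, so a gene with little change lies far from it in any case. They are a description only.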

How the data were processed

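The authors deposited whole-number counts per Ensembl transcript, not normalized, and FPKM values per transcript for each library. Their processing notes name CASAVA, Trimmomatic, FastQC, HISAT2, bedtools and GRCh38. The counter, the annotation and the strand setting are not given in the sources used here. The labels number the shIGF2BP3 libraries 1 and 2 where the columns have 2 and 3, and samples followed the record of each FPKM file.

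Transcript values were summed to genes. RefSeq GRCh38.p14 symbols were assigned by reciprocal best overlap (at least 0.5 shared, a lead of 0.2). SRP19 and SRPRA were matched by their 5′ end, within 100 bases. NOMO2 was not matched. Genes and transcripts were tested with edgeR 4.0.16 (R 4.3.3; TMM, quasi-likelihood test, filterByExpr at 10 and 15 counts, prior count 0.125) over all features, with Benjamini-Hochberg adjustment. DESeq2 1.42.0, limma 3.58.1 on log2(FPKM + 1) or log2(FPKM + 0.1), other scalings and filters, a replicate block and omission of each library were alternatives.

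The members and lists were chosen with earlier results of these data known. Named were the 10 genes and IGF2BP3, transcripts with at least 10 counts in a library and 5% of their gene, list genes past the thresholds or else the extremes of each list, the 5 nearest profiles (0.5 CPM added) and the neighbours of SRP9. The main transcripts of SRPRA, SRPRB, SEC61A1 and SEC61B met this rule but are not given apart. They held 96.6% to 99.6% of the counts of their genes over all libraries. Libraries are labelled as biological replicates. Replicates differed beyond sampling noise (chi-square per degree of freedom 77.5 and 78.9), and the common biological coefficient of variation was 22.8%. No sequence is shown, because none was among the files used here.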

Additional observations from a re-analysis of the deposited data

How the results depend on the processing

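The log2 fold change of SRP9 ran from -1.62 to -1.53 under other processing and from -1.65 to -1.40 with 1 library left out. SRP19 ran from 0.64 to 0.88 and from 0.44 to 0.98, and IGF2BP3 from -0.68 to -0.44 and from -0.69 to -0.36. SRP14 changed sign, to -0.57, without shIGF2BP3 replicate 2, and was 0.68 without replicate 1. SRP54 was -0.008 with library totals, -0.141 in limma on log2(FPKM + 0.1), and -0.135 on log2(FPKM + 1), filtered or not. With transcripts of at least 10 counts in every library only, SRP68 was 0.54 and SRP54 0.99, since that filter drops transcripts at 0 in 1 library. SRP68 was 0.11 without shCtrl replicate 2 and 0.00 without shIGF2BP3 replicate 1, and ran from -0.16 to 0.11 over the 4 omissions. The SRP9 transcript ENST00000366839 was -0.10 with library totals.

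The count of genes past the thresholds, 712, was 460 in limma on log2(FPKM + 1), 320 when unfiltered, and 584 to 1552 with 1 library left out, the highest without shIGF2BP3 replicate 1. The number of partners past them was 0 to 2 with 1 library left out, and 0 without shCtrl replicate 1 or shIGF2BP3 replicate 2. Without shIGF2BP3 replicate 1 it was 2, SRP19 and SRP14. No partner passed an adjusted p of 0.05 in any alternative. Same-numbered samples did not deviate together over all genes tested (r = 0.044 across 13379 genes). Whether they shared a batch that acted on part of the genes was not tested. The numbers here and in the replicate block are those of the labels. For shIGF2BP3 the columns are numbered otherwise, so this pairing may not be a real one. With the replicate block, 772 genes passed the thresholds, SRP9 was -1.53, SRP19 0.71 (adjusted p = 0.447) and SRP14 0.06. No gene overlaps SRP9 on its strand, so pooling it with overlapping genes was not run. Pooling SRP19 was chosen after seeing the data. With 2 libraries a group, the spread and not the depth limited these estimates.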
